A study of Mus musculus with 12 samples.

Results

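Genes of the voltage-gated sodium, voltage-gated calcium and potassium channels were measured at 1 time, 4 days into the conversion of mouse embryonic fibroblasts toward motor neurons. Members were the rows whose symbols name a sodium channel subunit (Scn, a number, and a or b), any potassium channel subunit (Kcn) or any voltage-gated calcium channel subunit (Cacn). They were kept when their value was at least 10 in at least 3 of 11 libraries. The table listed 130 such genes, and 82 of them were kept, among 14207 genes kept of 23077 in all. The rule read levels but no difference between groups. Of the 82, 3 reached a value of 10 only in SDD libraries and 1 only in RISDD libraries, so counts of changed members describe the genes that passed this filter, not every channel gene.

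The cells were primary fibroblasts of mouse embryos that carry Hb9::GFP, a transgene reporting the motor neuron factor Mnx1 (Hb9), and every sample received a retrovirus for Ngn2, Isl1 and Lhx3, joined by 2A peptides and together called NIL. The NIL group (3 libraries) received nothing more. The SDD group (3 libraries) also received SNAP-p53DD, a dominant-negative fragment of p53 that carries a SNAP tag for sorting. The SDDIR group (2 libraries) received the same fusion followed by an internal ribosome entry site (IRES) and constitutively active HRAS, and the RISDD group (3 libraries) received that HRAS first, then the IRES and the fusion. Medium was changed on day 3, when RepSox, which blocks the receptor kinase of TGF-beta, was added to every group but NIL, and RNA was taken on day 4 after infection from 50000 sorted cells. The sort took live single cells in NIL and SNAP-stained cells in the other groups, so p53DD, RepSox and the sort cannot be told apart in SDD against NIL. No group without NIL was analysed here. In these bulk samples, fewer cells that express a gene and less RNA of it per cell cannot be told apart. The replicates are labelled biological with no further statement, so the p-values speak of the spread among these libraries, which may be technical.

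A sodium or calcium channel is built on one large alpha subunit that holds the pore and the voltage sensors. Beta, alpha2delta and gamma subunits attach to it and alter its delivery to the membrane and its gating. Potassium channels are assembled from smaller pore subunits. They include voltage-gated families (Kv, among them Kv7 and the EAG and ERG families), calcium- or sodium-activated channels, inward rectifiers and two-pore leak channels, and their auxiliary subunits include the Kcnab, Kcnip, Kcne and Kcnmb genes. In neurons sodium channels carry the upstroke of the action potential, potassium channels its repolarization and the resting potential, and calcium channels couple it to transmitter release and gene regulation. Fibroblasts, epithelia and blood cells also carry channels, mostly of the potassium kind.

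Deposited values were gene counts scaled to each library, with recovered depths of 14872639 to 29815073 reads, and 1 read was worth 0.614 to 1.24. Channel genes held 0.0490% to 0.0829% of the signal of a library, and 60 to 84 of the 130 reached a value of 10 in a given library. The library NIL C stood apart, with 0.537% of its signal from mitochondrial genes against 2.60% to 4.04% in the other 10 libraries. It also differed from its replicates over all genes. The chi-square per degree of freedom on reads, near 1 for counting error alone, was 215 against NIL A and 220 against NIL B. Between NIL A and NIL B it was 20.8. Each difference below is a limma test on log2(value + 1), written as log2 change ± its standard error, with p adjusted by Benjamini-Hochberg over all 14207 genes, and a gene rose or fell when adjusted p was under 0.05. Means are given ± SD, library values in the order A, B and C, and folds on the log2(value + 1) scale, which understates the change of low genes. SDD is the reference of 2 comparisons and the test group of another, so these comparisons share libraries.

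Channel genes changed in each comparison, most often in RISDD against SDD. Between SDD and NIL, 18 of 82 members were higher and 6 lower (29.3% changed), against 9.32% higher and 8.26% lower (17.6% changed) of all genes tested. In SDDIR against SDD 15 members were higher and 24 lower (47.6%), against 8.66% and 13.9% (22.5%) of all genes. In RISDD against SDD 23 were higher and 30 lower (64.6%), against 20.0% and 22.6% (42.6%) of all genes. In RISDD against SDDIR 11 were higher and 8 lower (23.2%), against 4.64% and 5.05% (9.69%) of all genes.

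The median log2 change of the 82 members was 0.19 in SDD against NIL, -0.41 in SDDIR against SDD, -0.63 in RISDD against SDD and -0.12 in RISDD against SDDIR, beside 0.05, 0.01, 0.02 and 0.01 over all genes. Of these members, 8 of 22 auxiliary subunits rose and 1 fell in SDD against NIL, while 5 rose and 12 fell in RISDD against SDD. Among the 60 pore subunits 18 rose and 18 fell in that last comparison. Of all genes 9.32% rose and 8.26% fell in SDD against NIL, and 20.0% rose and 22.6% fell in RISDD against SDD. The auxiliary rises in SDD and falls in RISDD include Kcnip4 and Kcnmb2, which the filter kept through SDD alone. The pore falls include Kcns2, kept through SDD alone, and the pore rises Kcnj12, kept through RISDD alone. Scn9a and Kcnk9, also among the pore rises, reached 10 in too few libraries outside RISDD to be kept without it. Some counts turned on single libraries. The 18 members higher in SDD than NIL became 7 without SDD A and 11 without SDD B or SDD C. The 24 lower in SDDIR than SDD became 14 without SDD A, 15 without SDD C or SDDIR B and 10 without SDDIR A. In RISDD against SDDIR the 11 higher and 8 lower became 18 and 14 without NIL C, 2 and 3 without SDDIR A, 7 and 2 without SDDIR B, 5 and 7 without RISDD A, and 6 and 6 without RISDD B or RISDD C. Without NIL C, 18 members were higher and 7 lower in SDD against NIL, 16 and 30 in SDDIR against SDD and 24 and 38 in RISDD against SDD. In a fit of only NIL and SDD 4 members were higher and 4 lower. In all, 62 members passed in at least 1 comparison and 20 in none, where 51.2% of all genes passed in at least 1, and no call changed sign under any alternative that was run.

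**Figure D1:**
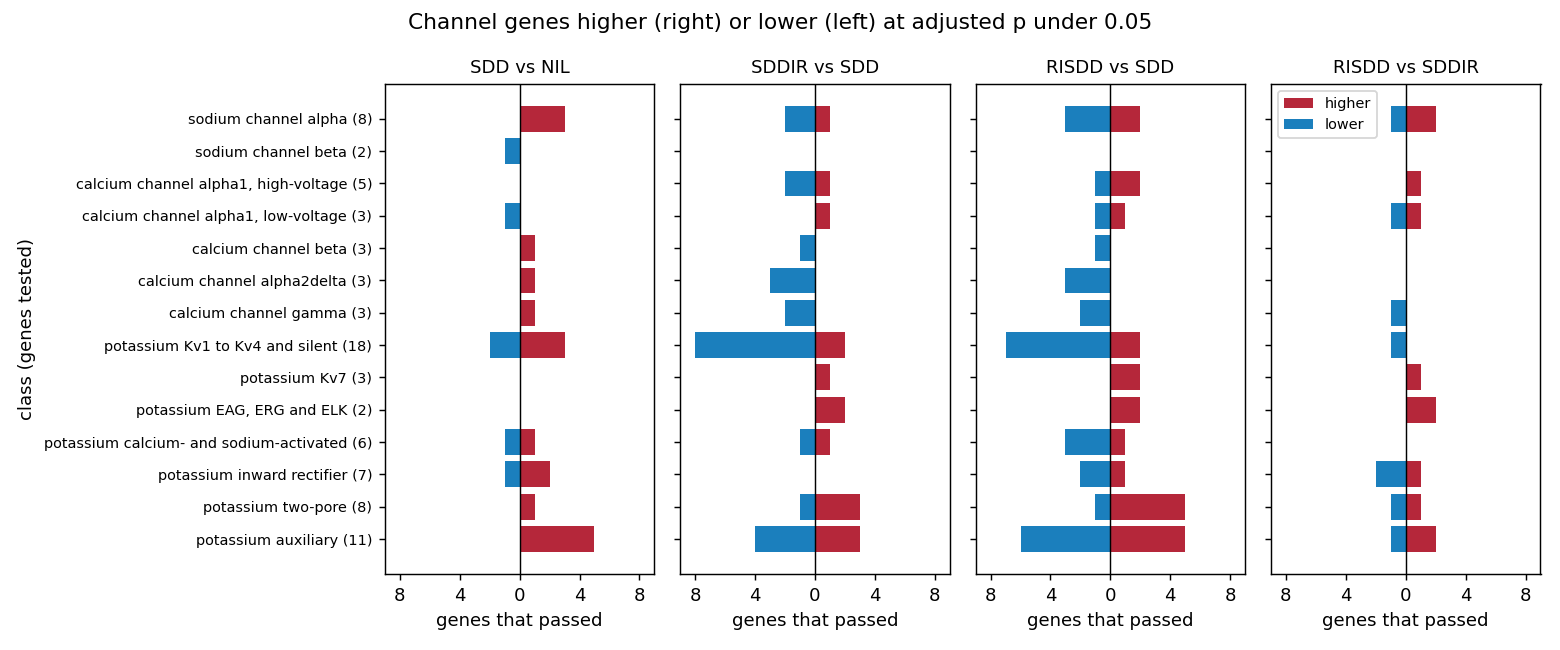
Channel genes of each class that were higher (bars to the right, number of genes) or lower (bars to the left) at adjusted p under 0.05 in the 4 comparisons, with the number tested in parentheses. The longest bars to the left are the 8 and 7 Kv1 to Kv4 and silent subunits lower in SDDIR and RISDD than in SDD, where 13.9% and 22.6% of all genes were lower. In SDD against NIL 18 of 24 calls are to the right, where 9.32% of all genes were higher and 8.26% lower. The bars also count genes that the filter kept through SDD alone (Kcns2, Kcnip4 and Kcnmb2) or RISDD alone (Kcnj12).

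**Figure D2:**
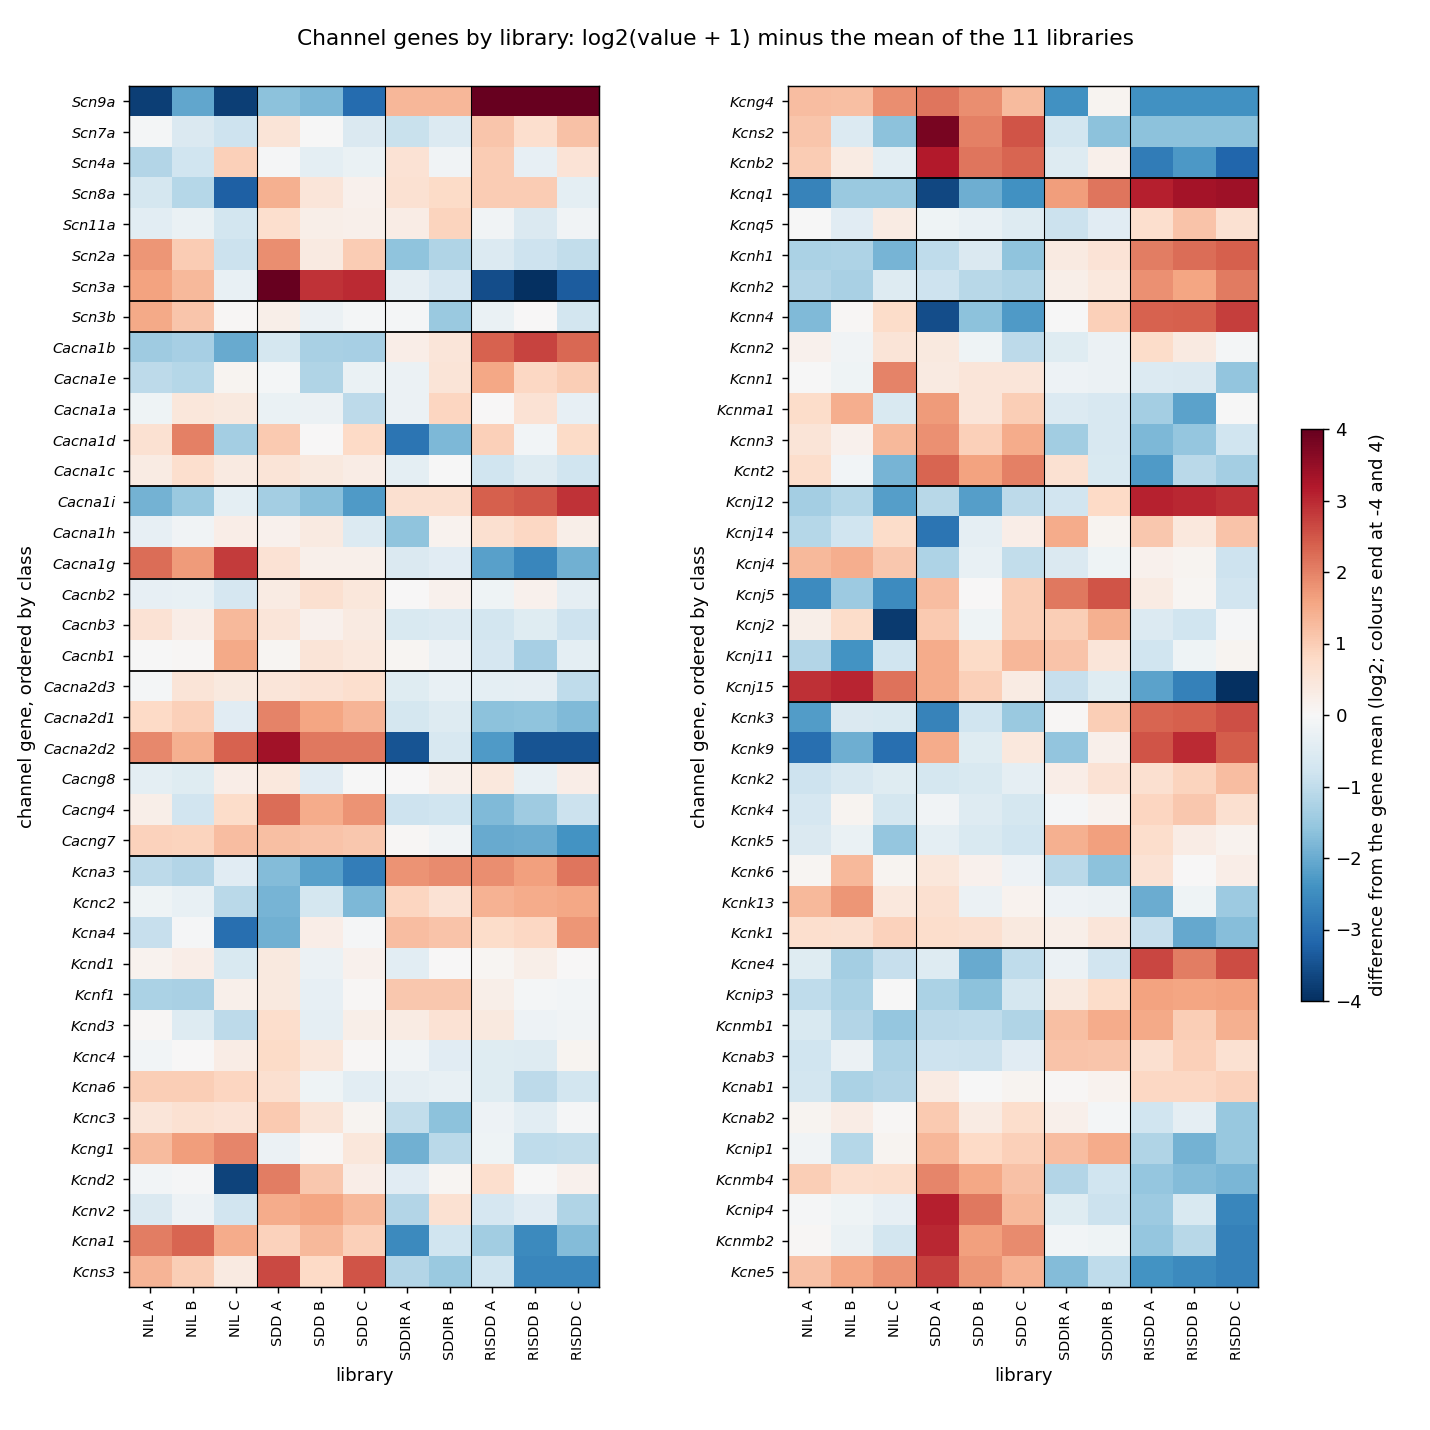
Each row is 1 channel gene, with 78 of the 82 members drawn, and each column 1 of the 11 libraries, with black lines between classes (sodium alpha and beta, calcium alpha1, beta, alpha2delta and gamma, then potassium families); the colour is log2(value + 1) minus the mean of that gene over all 11 libraries. Scn9a and Kcnq1 are red and Scn3a and Kcnb2 blue in all 3 RISDD libraries, and many genes with blue RISDD cells are red in the 3 SDD libraries.

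The 250 bases before each start were read from RefSeq's promoter table (GRCm38.p6), which held 56 of the 82 members with 82 windows. AP-1 factors (FOS and JUN) are known to be activated by RAS signalling. The letters TGANTCA, with any base in the middle, were taken for them and are looser than their usual site, which has C or G there. These were searched on both strands, as were the other motifs below, none of which contains another. They were in 3 member windows (3.66%) and in 6.75% of all 32851 windows. The windows that held them are shown because they belong to Kcnip3 (chr2:127522095-127522344, minus strand) and Kcnk2 (chr1:189344193-189344442, minus strand), which rose in RISDD, and Kcnip4 (chr5:49285660-49285909, minus strand), whose values were lower there than in SDD. Their matches begin 122, 126 and 82 bases before the start, in that order. The match of Kcnip4 has T in the middle and so is not the usual site. The window of Scn9a (chr2:66634963-66635212, minus strand), the sodium channel gene furthest above SDD in RISDD, holds no such letters and is shown beside them. Capitals mark the match, and every window is written 5′ to 3′ on the strand of its gene.
Kcnip3: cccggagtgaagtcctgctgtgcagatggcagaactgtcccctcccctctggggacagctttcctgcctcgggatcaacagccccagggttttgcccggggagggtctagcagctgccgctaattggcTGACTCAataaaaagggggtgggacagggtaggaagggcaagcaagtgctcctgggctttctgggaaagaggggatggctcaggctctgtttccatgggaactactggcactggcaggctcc
Kcnk2: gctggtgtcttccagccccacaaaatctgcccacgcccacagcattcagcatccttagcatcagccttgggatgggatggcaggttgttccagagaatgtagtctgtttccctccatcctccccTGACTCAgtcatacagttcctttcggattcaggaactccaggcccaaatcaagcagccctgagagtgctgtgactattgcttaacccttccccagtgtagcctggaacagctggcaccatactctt
Kcnip4: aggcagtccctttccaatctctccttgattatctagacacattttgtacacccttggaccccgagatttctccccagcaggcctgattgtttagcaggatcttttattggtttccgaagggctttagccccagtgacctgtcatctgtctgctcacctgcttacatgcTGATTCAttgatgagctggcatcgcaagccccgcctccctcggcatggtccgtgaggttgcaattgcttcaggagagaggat
Scn9a: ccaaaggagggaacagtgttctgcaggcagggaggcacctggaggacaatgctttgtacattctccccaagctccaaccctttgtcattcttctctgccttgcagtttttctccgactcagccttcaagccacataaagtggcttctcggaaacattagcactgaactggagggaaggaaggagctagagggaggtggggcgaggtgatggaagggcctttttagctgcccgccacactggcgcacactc
All 3 genes have other starts whose windows hold no match. Of the members in the table, 2 of 19 that rose in RISDD against SDD, 1 of 21 that fell and 0 of 16 others had a match. The 1 among the falls is Kcnip4, which the filter kept through SDD alone, as it did Kcnmb2 in the same 21. Among the 19 rises are Kcnj12, kept through RISDD alone, and Scn9a, kept through its RISDD libraries. The differences of these genes are a description, with no test. The ETS core CCGGAA was in 2 member windows (2.44%) and 12.0% of all windows. The E-box letters CANATG, which include sites bound by factors of the Ngn2 kind, were in 20 member windows (24.4%) and 35.0% of all. A match is a description of letters, not a binding site.

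Of the pore-forming sodium channel genes 8 of 10 listed were kept, and the largest opposite changes were those of Scn3a and Scn9a. Scn3a encodes a sodium channel typical of embryonic neurons. Its values were 78.9, 63.5 and 20.4 in NIL, 442, 190.5 and 203 in SDD, 19.5 and 15.4 in SDDIR and 1.24, 0 and 1.58 in RISDD. Every SDD library was above every NIL library, and the groups did not overlap in any of the 4 comparisons. Scn3a rose in SDD against NIL (2.43 ± 0.57, adjusted p = 0.0172) and fell in SDDIR against SDD (-3.82 ± 0.64, adjusted p = 0.00202). In RISDD it fell further, both against SDD (-7.17 ± 0.57, adjusted p = 5.41e-06) and against SDDIR (-3.35 ± 0.64, adjusted p = 0.0101). RISDD and SDD held 3 against 919 reads, a ratio of 264 after scaling for depth (95% counting interval 90.2 to 1280), an interval that, as the others below, covers counting error only. Leaving out SDD A ended the Scn3a call in SDD against NIL, with an adjusted p of 0.0749 (0.00013 to 0.0749 across alternatives). Scn3a did not pass in RISDD against SDDIR when SDDIR A or SDDIR B was left out, with adjusted p from 0.0647 to 0.103 (0.000904 to 0.104 across alternatives).

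Scn9a, the sodium channel gene best known from sensory and sympathetic neurons, ran the other way. It was measured at 0, 2.23 and 0 in NIL, 3.38, 2.90 and 0.610 in SDD, 33.0 and 33.2 in SDDIR and 389.6, 275 and 268 in RISDD. It was near 0 in NIL and SDD, at an intermediate level in both SDDIR libraries and at its highest in the 3 RISDD libraries. The rise was 3.50 ± 0.62, adjusted p = 0.00276 in SDDIR against SDD, 6.67 ± 0.56, adjusted p = 7.24e-06 in RISDD against SDD and 3.17 ± 0.62, adjusted p = 0.0115 in RISDD against SDDIR. The difference between SDD and NIL did not pass (1.03 ± 0.56, adjusted p = 0.22). Scn9a is still counted among the rises in RISDD against SDD and SDDIR. Its place in the count against SDDIR was lost when SDDIR A, SDDIR B or RISDD A was left out.

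Scn7a, which encodes an atypical sodium-sensing channel, stood at 25.4 ± 7.19 in NIL and 36.3 ± 13.8 in SDD, against 21.2 ± 3.59 in SDDIR and 71.3 ± 12.9 in RISDD, and rose in RISDD against both SDD (1.01 ± 0.35, adjusted p = 0.0382) and SDDIR (1.70 ± 0.39, adjusted p = 0.022). Scn11a, a channel of pain-sensing neurons, was at 86.3 ± 14.3 in NIL and 156 ± 28.6 in SDD, against 184 ± 54.6 in SDDIR and 98.7 ± 17.1 in RISDD. Scn11a rose in SDD against NIL (0.85 ± 0.24, adjusted p = 0.0365) and fell in RISDD against SDD (-0.66 ± 0.24, adjusted p = 0.0492). Leaving out SDD B, SDD C, SDDIR A, SDDIR B, RISDD A, RISDD B or RISDD C ended the Scn7a call in RISDD against SDD, with adjusted p from 0.0502 to 0.146 (0.00667 to 0.146 across alternatives). Scn7a did not pass in RISDD against SDDIR when SDDIR A, SDDIR B, RISDD A or RISDD C was left out, with adjusted p from 0.0774 to 0.176 (0.00154 to 0.176 across alternatives). The Scn11a call in SDD against NIL ended when NIL A, SDD A, SDD B, SDD C, RISDD A or RISDD C was left out, with adjusted p from 0.0557 to 0.125 (0.0083 to 0.125 across alternatives). Leaving out NIL A, SDD A, SDD B, SDD C, RISDD A, RISDD B or RISDD C ended the Scn11a call in RISDD against SDD, with adjusted p from 0.061 to 0.178 (0.0179 to 0.189 across alternatives).

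Scn2a and Scn8a encode main sodium channels of central neurons and their axons, and both stayed at low values. Scn2a was listed at 53.7, 31.2 and 7.76 in NIL, 57.5, 19.3 and 31.3 in SDD, 4.23 and 5.93 in SDDIR and 9.89, 8.09 and 7.11 in RISDD, and fell in SDDIR (-2.49 ± 0.72, adjusted p = 0.0305) and RISDD (-1.86 ± 0.64, adjusted p = 0.0382) against SDD. For Scn8a the values were 4.88, 3.34 and 0 in NIL, 24.8, 12.6 and 9.83 in SDD, 13.6 and 15.4 in SDDIR and 18.6, 18.2 and 6.32 in RISDD. Scn8a rose in SDD against NIL (2.40 ± 0.71, adjusted p = 0.0412), with all 3 SDD libraries above the 3 NIL libraries. Scn2a did not pass in SDDIR against SDD when SDD A, SDD C, SDDIR A or SDDIR B was left out, with adjusted p from 0.0731 to 0.174 (0.00202 to 0.174 across alternatives). The Scn2a call in RISDD against SDD ended when SDD A, SDD C, SDDIR A, SDDIR B, RISDD A, RISDD B or RISDD C was left out, with adjusted p from 0.0532 to 0.146 (0.00316 to 0.146 across alternatives). Leaving out NIL C, SDD A, SDD B, SDD C, SDDIR A, SDDIR B, RISDD A or RISDD B ended the Scn8a call in SDD against NIL, with adjusted p from 0.0515 to 0.141 (0.0109 to 0.143 across alternatives). Scn4a, the sodium channel gene of skeletal muscle, passed in no comparison.

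Scn3a, Scn2a, Scn1a, Scn9a and Scn7a neighbour each other on chromosome 2 in RefSeq's annotation, with the protein-coding genes Csrnp3, Galnt3 and Ttc21b lying between Scn2a and Scn1a. The 2 sodium channel genes that changed most stand near opposite ends of this run and moved in opposite directions in RISDD. Scn1a, between them in this order, was not kept, with its highest value, 12.4, in SDD A. Of the other genes in the run, Galnt3, an enzyme of O-linked glycosylation, had group means of 44.7 in NIL and 47.1 in SDD, against 321 in SDDIR and 737 in RISDD, and Ttc21b, a cilium gene, of 442, 526, 611 and 525. Genes of this run thus held different patterns across the same 4 groups.

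**Figure D3:**
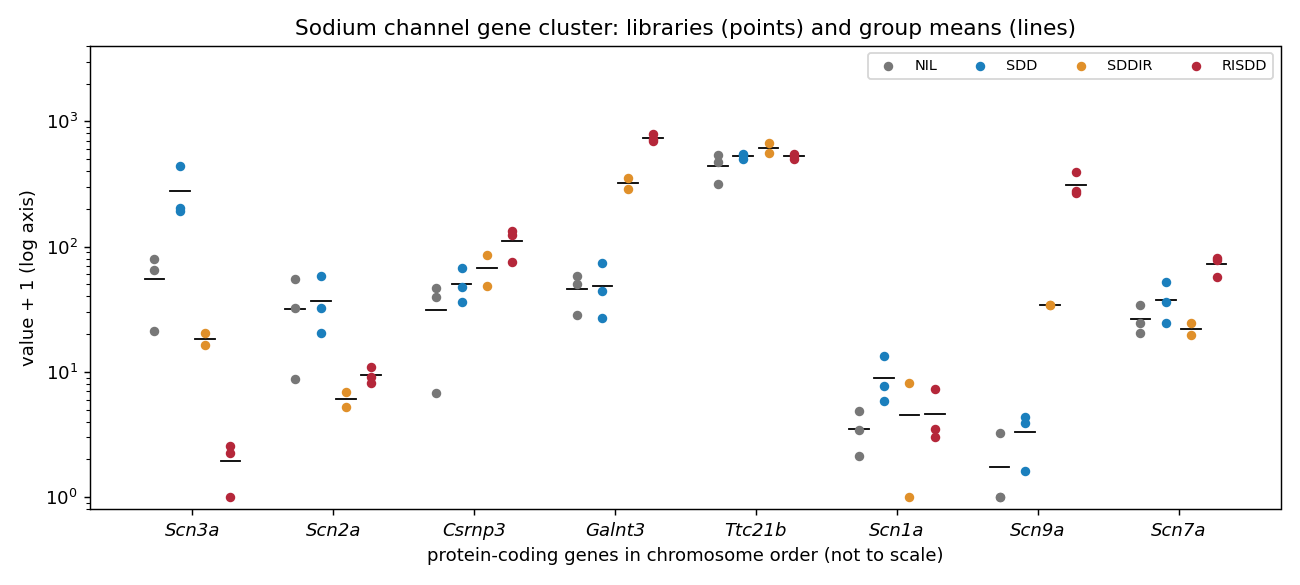
Values + 1 on a log axis for the 8 protein-coding genes of the sodium channel run, in chromosome order and not to scale; points are libraries, lines are means of the groups NIL, SDD, SDDIR and RISDD. The RISDD points lie lowest for Scn3a and highest for Scn9a, while those of Ttc21b lie among the other groups.

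Scn3b, one of the sodium channel beta subunits, which modify gating and placement of the pore subunit, passed in no comparison.

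**Figure D4:**
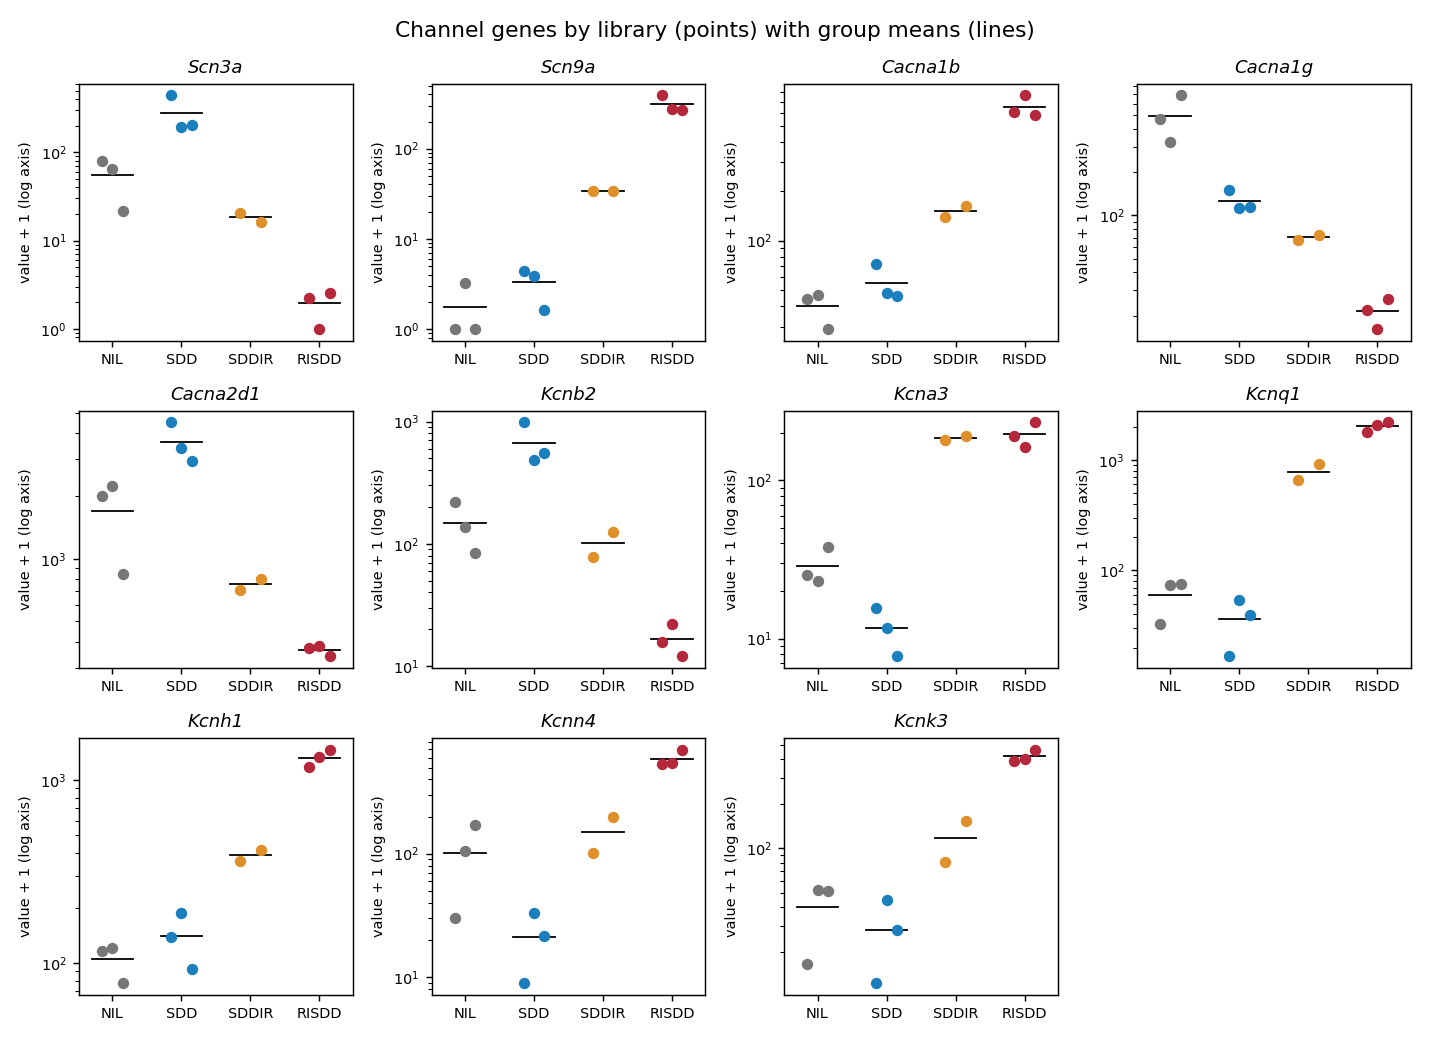
Values + 1 on log axes for 11 channel genes in the groups NIL, SDD, SDDIR and RISDD; points are libraries and lines group means. Scn3a, Cacna2d1 and Kcnb2 are highest in SDD and lowest in RISDD, Cacna1g is highest in NIL, and Scn9a, Cacna1b, Kcnq1, Kcnh1, Kcnn4 and Kcnk3 are highest in RISDD.

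Calcium channel pore genes were split in the same comparisons. Of 5 high-voltage-activated alpha1 genes kept of 7, the largest change was that of Cacna1b, the N-type channel of presynaptic terminals. Cacna1b values were 43.1, 45.7 and 28.1 in NIL, 71.0, 47.4 and 45.5 in SDD, 139 and 162 in SDDIR and 604, 762 and 580.1 in RISDD. Both SDDIR libraries lay above all NIL and SDD libraries, and all RISDD libraries lay above those. It rose in SDDIR against SDD (1.47 ± 0.28, adjusted p = 0.00401), in RISDD against SDD (3.56 ± 0.25, adjusted p = 2.39e-06) and in RISDD against SDDIR (2.09 ± 0.28, adjusted p = 0.00201), and every alternative kept these 3 calls.

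Cacna1c, the L-type channel gene of heart, smooth muscle and many other cells, moved down. Its values were 389.8, 492 and 399.9 in NIL, 444, 411 and 379 in SDD, 238 and 307 in SDDIR and 178, 215 and 179 in RISDD, and it fell in SDDIR (-0.60 ± 0.18, adjusted p = 0.0359) and RISDD (-1.11 ± 0.16, adjusted p = 0.000297) against SDD. The R-type gene Cacna1e was at 17.2 ± 9.52 in NIL and 19.0 ± 7.41 in SDD, against 30.0 ± 11.3 in SDDIR and 58.9 ± 16.7 in RISDD and rose in RISDD against SDD (1.63 ± 0.46, adjusted p = 0.0153). Cacna1a, the P/Q-type channel of most central synapses, was at 163 ± 36.0 in NIL and 98.5 ± 28.4 in SDD, against 182 ± 93.2 in SDDIR and 151 ± 49.1 in RISDD without passing in any comparison. Its log2 change in RISDD against SDD was 0.61 (95% interval -0.18 to 1.40). Cacna1c did not pass in SDDIR against SDD when SDD A, SDD B, SDD C, SDDIR A, SDDIR B, RISDD A or RISDD C was left out, with adjusted p from 0.052 to 0.305 (0.0104 to 0.305 across alternatives). The Cacna1e call in RISDD against SDD ended when SDD B or RISDD A was left out, with adjusted p from 0.0622 to 0.067 (0.00315 to 0.067 across alternatives).

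The low-voltage-activated, or T-type, genes Cacna1g, Cacna1h and Cacna1i were all kept, and they did not move together. Cacna1g had values of 469, 322 and 685 in NIL, 149, 112 and 114 in SDD, 66.1 and 72.3 in SDDIR and 21.0, 15.2 and 25.3 in RISDD. NIL was highest and RISDD lowest with no overlap between any pair of groups. Cacna1g fell in SDD against NIL (-1.91 ± 0.29, adjusted p = 0.0025), in RISDD against SDD (-2.57 ± 0.29, adjusted p = 5.82e-05) and in RISDD against SDDIR (-1.73 ± 0.33, adjusted p = 0.00982). Cacna1i, with 10.6, 14.5 and 32.0 in NIL, 15.8, 12.6 and 7.99 in SDD, 66.1 and 66.4 in SDDIR and 223, 241 and 320.1 in RISDD, rose in SDDIR against SDD (2.40 ± 0.45, adjusted p = 0.0034), in RISDD against SDD (4.35 ± 0.40, adjusted p = 1.31e-05) and in RISDD against SDDIR (1.95 ± 0.45, adjusted p = 0.0226). All 3 RISDD libraries of Cacna1i were above every other library, and the NIL and SDD libraries overlapped. Cacna1h, at 139 ± 30.7 in NIL and 147 ± 43.4 in SDD, against 103 ± 79.4 in SDDIR and 216 ± 43.9 in RISDD, passed in no comparison. Leaving out SDDIR A or SDDIR B ended the Cacna1g call in RISDD against SDDIR, with adjusted p from 0.0797 to 0.0822 (0.000194 to 0.0822 across alternatives). Cacna1i did not pass in RISDD against SDDIR when SDDIR A, SDDIR B, RISDD A, RISDD B or RISDD C was left out, with adjusted p from 0.0591 to 0.152 (4.41e-05 to 0.152 across alternatives).

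Auxiliary calcium channel genes moved mostly one way once HRAS was present. All 3 alpha2delta genes kept fell in both SDDIR and RISDD against SDD, where 13.9% and 22.6% of all genes fell. Cacna2d1, whose product binds gabapentin, was measured at 2002, 2246 and 842 in NIL, 4513, 3415 and 2938 in SDD, 706 and 801 in SDDIR and 372, 379 and 339.9 in RISDD. All SDD libraries were above all NIL libraries, and all libraries with HRAS were below both. Cacna2d1 rose in SDD against NIL (1.19 ± 0.32, adjusted p = 0.0278) and fell in SDDIR (-2.24 ± 0.35, adjusted p = 0.00142) and RISDD (-3.29 ± 0.32, adjusted p = 1.8e-05) against SDD. Cacna2d2 was at 39.9, 27.9 and 54.4 in NIL, 112, 45.5 and 46.1 in SDD, 0 and 5.93 in SDDIR and 1.24, 0 and 0 in RISDD, and fell in SDDIR (-4.57 ± 0.81, adjusted p = 0.00255) and RISDD (-5.58 ± 0.72, adjusted p = 0.000131) against SDD. In RISDD against SDD this was 1 against 221 reads, a ratio of 191 after scaling for depth (95% counting interval 33.9 to 7570). Cacna2d3 stood at 53.1 ± 11.2 in NIL and 64.7 ± 4.83 in SDD, against 32.4 ± 2.75 in SDDIR and 28.7 ± 7.08 in RISDD, and its falls were -0.97 ± 0.31, adjusted p = 0.0467 and -1.17 ± 0.28, adjusted p = 0.00615. The Cacna2d1 call in SDD against NIL ended when SDD A, SDD B or SDD C was left out, with adjusted p from 0.0544 to 0.107 (0.00446 to 0.132 across alternatives). Leaving out SDD A, SDD B, SDD C, SDDIR A, SDDIR B, RISDD A or RISDD B ended the Cacna2d3 call in SDDIR against SDD, with adjusted p from 0.063 to 0.227 (0.0201 to 0.227 across alternatives).

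The beta subunits bind inside the cell and carry the alpha1 subunit to the membrane. Cacnb3 had values of 1178, 942 and 1951 in NIL, 1090.3, 879 and 1016 in SDD, 519 and 538 in SDDIR and 475, 564 and 444 in RISDD, and fell in SDDIR (-0.91 ± 0.26, adjusted p = 0.0295) and RISDD (-1.01 ± 0.23, adjusted p = 0.00512) against SDD. Its NIL and SDD libraries overlapped. Cacnb2 was at 52.2 ± 7.41 in NIL and 99.3 ± 11.2 in SDD, against 75.3 ± 5.86 in SDDIR and 66.1 ± 12.6 in RISDD and rose in SDD against NIL (0.92 ± 0.22, adjusted p = 0.0201). Cacnb1 passed in no comparison. Cacnb3 did not pass in SDDIR against SDD when SDD A, SDD C, SDDIR A or SDDIR B was left out, with adjusted p from 0.0787 to 0.155 (0.000426 to 0.155 across alternatives). The Cacnb2 call in SDD against NIL ended when SDD B or SDD C was left out, with adjusted p from 0.0653 to 0.0747 (0.00178 to 0.0919 across alternatives).

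The gamma genes kept, Cacng4, Cacng7 and Cacng8, belong to the group that also serves AMPA-type glutamate receptors as auxiliary subunits. Cacng7 values were 687, 678 and 859 in NIL, 845, 809 and 775 in SDD, 378 and 329.6 in SDDIR and 89.0, 92.0 and 68.0 in RISDD. The SDDIR libraries were below all NIL and SDD libraries and the RISDD libraries below all SDDIR libraries. Cacng7 fell in SDDIR against SDD (-1.19 ± 0.18, adjusted p = 0.00104), in RISDD against SDD (-3.28 ± 0.16, adjusted p = 2.18e-07) and in RISDD against SDDIR (-2.09 ± 0.18, adjusted p = 0.000284), and every alternative kept these calls. Cacng4 was listed at 27.7, 13.4 and 39.8 in NIL, 114, 67.7 and 83.5 in SDD, 12.7 and 13.0 in SDDIR and 6.18, 8.09 and 12.7 in RISDD. It rose in SDD against NIL (1.77 ± 0.43, adjusted p = 0.0202) and fell in SDDIR (-2.66 ± 0.48, adjusted p = 0.0031) and RISDD (-3.18 ± 0.43, adjusted p = 0.000187) against SDD. Cacng8 passed in none. Leaving out SDD A or SDD C ended the Cacng4 call in SDD against NIL, with adjusted p from 0.0654 to 0.0792 (0.0013 to 0.0792 across alternatives).

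The Kv1 to Kv4 families with their silent partners formed the largest class, with 18 of 27 listed genes kept. Of them 3 rose and 2 fell in SDD against NIL, 2 rose and 8 fell in SDDIR against SDD, and 2 rose and 7 fell in RISDD against SDD. The shares of all genes that rose and fell were 9.32% and 8.26%, 8.66% and 13.9%, and 20.0% and 22.6%, in that order. Kcns2, kept by the filter through SDD alone, is counted among the rises in SDD and the falls in SDDIR and RISDD. Kcnb2, a delayed rectifier of neurons, had values of 219, 137 and 83.5 in NIL, 981, 484 and 549 in SDD, 76.2 and 124 in SDDIR and 14.8, 21.2 and 11.1 in RISDD. SDD was highest and RISDD lowest, and SDDIR overlapped only with NIL. Kcnb2 rose in SDD against NIL (2.22 ± 0.40, adjusted p = 0.00545) and fell in SDDIR against SDD (-2.70 ± 0.45, adjusted p = 0.00199), in RISDD against SDD (-5.30 ± 0.40, adjusted p = 3.94e-06) and in RISDD against SDDIR (-2.60 ± 0.45, adjusted p = 0.00644). Kcnb2 did not pass in RISDD against SDDIR when SDDIR B was left out, with an adjusted p of 0.0752 (4.5e-06 to 0.0752 across alternatives).

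Kcna3 and Kcnc2 were the 2 genes of this class that rose with HRAS. Kcna3, the voltage-gated channel best known from T lymphocytes, had values of 24.4, 22.3 and 36.9 in NIL, 14.7, 10.6 and 6.76 in SDD, 179.6 and 191 in SDDIR and 189, 163 and 232 in RISDD. The 5 libraries with HRAS were all above the 6 without it, and SDDIR and RISDD overlapped. Kcna3 fell in SDD against NIL (-1.33 ± 0.31, adjusted p = 0.0174) and rose in SDDIR (4.05 ± 0.35, adjusted p = 4.77e-05) and RISDD (4.11 ± 0.31, adjusted p = 4.06e-06) against SDD. Its log2 change between RISDD and SDDIR was 0.06 (95% interval -0.72 to 0.84). Kcnc2, of the fast Kv3 family, was at 46.8 ± 14.7 in NIL and 24.8 ± 12.9 in SDD, against 108 ± 15.7 in SDDIR and 183 ± 10.5 in RISDD, and rose in SDDIR (2.18 ± 0.40, adjusted p = 0.00298) and RISDD (2.94 ± 0.35, adjusted p = 8.03e-05) against SDD. For Kcna3 in SDD against NIL the call rested on SDD C, with an adjusted p of 0.0645 (0.00141 to 0.144 across alternatives) without it.

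Silent subunits do not form channels alone and alter Kv2 channels when they join them. Kcnv2 had values of 21.2, 27.9 and 18.4 in NIL, 91.3, 97.7 and 80.5 in SDD, 13.6 and 49.8 in SDDIR and 19.8, 23.3 and 13.4 in RISDD, and rose in SDD against NIL (1.97 ± 0.44, adjusted p = 0.0131). It fell in SDDIR (-1.74 ± 0.49, adjusted p = 0.0273) and RISDD (-2.22 ± 0.44, adjusted p = 0.00202) against SDD. Kcng1 was highest in NIL, at 102, 135 and 165 in NIL, 35.0, 42.5 and 56.5 in SDD, 10.2 and 19.0 in SDDIR and 37.1, 20.2 and 20.6 in RISDD, and fell in SDD against NIL (-1.56 ± 0.36, adjusted p = 0.0151) and in SDDIR against SDD (-1.59 ± 0.40, adjusted p = 0.0164). Leaving out SDD A, SDD B, SDD C or SDDIR A ended the Kcnv2 call in SDDIR against SDD, with adjusted p from 0.0607 to 0.289 (0.00626 to 0.289 across alternatives). Kcng1 did not pass in SDD against NIL when SDD A was left out, with an adjusted p of 0.0588 (0.000187 to 0.0588 across alternatives). The Kcng1 call in SDDIR against SDD ended when SDD C or SDDIR A was left out, with adjusted p from 0.0612 to 0.167 (0.00297 to 0.167 across alternatives).

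Kcnc4 and Kcna1 were also lower in RISDD than in SDD. Kcnc4, of the Kv3 family, was at 181 ± 26.9 in NIL and 235 ± 57.6 in SDD, against 141 ± 21.9 in SDDIR and 143 ± 36.7 in RISDD and fell in RISDD against SDD (-0.71 ± 0.24, adjusted p = 0.0362), where 1 RISDD library lay inside the SDD range. Kcna1, an axonal channel, had values of 23.6, 29.0 and 15.5 in NIL, 10.2, 13.5 and 10.4 in SDD, 0 and 2.37 in SDDIR and 1.24, 0 and 0.790 in RISDD and fell in SDDIR (-2.74 ± 0.66, adjusted p = 0.0127) and RISDD (-2.95 ± 0.59, adjusted p = 0.00219) against SDD, in RISDD with 2 against 40 reads, a ratio of 17.3 after scaling for depth (95% counting interval 4.48 to 147). Leaving out SDD A, SDD B, RISDD A or RISDD B ended the Kcnc4 call in RISDD against SDD, with adjusted p from 0.0909 to 0.138 (0.015 to 0.14 across alternatives). Kcna1 did not pass in SDDIR against SDD when SDDIR A was left out, with an adjusted p of 0.138 (0.00558 to 0.138 across alternatives).

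In RISDD against SDD 2 of 3 kept Kv7 genes and 2 of 2 kept EAG/ERG genes rose, where 20.0% of all genes rose. No kept gene of these classes fell in any comparison. Kcnq1 encodes the slow channel of heart muscle and of many epithelia. Its values were 31.7, 72.5 and 73.8 in NIL, 15.8, 53.2 and 38.1 in SDD, 655 and 914 in SDDIR and 1781, 2082 and 2182 in RISDD. The 2 SDDIR libraries were at 655 and 914 where no NIL or SDD library exceeded 73.8, and all RISDD libraries were higher still. Kcnq1 rose in SDDIR (4.56 ± 0.48, adjusted p = 0.00013) and RISDD (5.93 ± 0.43, adjusted p = 2.77e-06) against SDD, and every alternative kept both calls. The change from SDDIR to RISDD did not pass (1.37 ± 0.48, adjusted p = 0.104, 95% interval 0.31 to 2.44). An antisense transcript overlaps Kcnq1. The kit was directional, but no source used here gives the strand setting of the counting, so reads of the 2 strands may not be told apart.

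Kcnq5, one of the genes of the neuronal M-current, was at 63.6 ± 16.9 in NIL and 50.6 ± 6.10 in SDD, against 40.5 ± 8.14 in SDDIR and 115 ± 24.2 in RISDD. It rose in RISDD against SDD (1.15 ± 0.27, adjusted p = 0.00571) and against SDDIR (1.47 ± 0.30, adjusted p = 0.0138). Kcnq3, another M-current gene, was not kept. The Kcnq5 call in RISDD against SDDIR ended when SDDIR A, SDDIR B or RISDD B was left out, with adjusted p from 0.0534 to 0.143 (0.000209 to 0.143 across alternatives).

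Kcnh1 (EAG) and Kcnh2 (ERG) were the 2 genes kept of 8 in their class, and both were graded from SDD through SDDIR to RISDD. Kcnh1 had values of 116, 119 and 76.7 in NIL, 138, 188 and 91.5 in SDD, 359 and 415 in SDDIR and 1175, 1336 and 1464 in RISDD, and Kcnh2, the repolarizing channel of heart muscle, 139, 128 and 223 in NIL, 178, 145 and 136 in SDD, 369 and 426 in SDDIR and 1132, 938 and 1341 in RISDD. In both genes NIL and SDD overlapped, both SDDIR libraries were above them and all RISDD libraries above those. Kcnh1 rose by 1.53 ± 0.29, adjusted p = 0.00394 in SDDIR against SDD, 3.30 ± 0.26, adjusted p = 4.96e-06 in RISDD against SDD and 1.77 ± 0.29, adjusted p = 0.00517 in RISDD against SDDIR. For Kcnh2 the changes were 1.38 ± 0.25, adjusted p = 0.00325, 2.88 ± 0.23, adjusted p = 4.79e-06 and 1.50 ± 0.25, adjusted p = 0.00562. Leaving out SDDIR A ended the Kcnh1 call in RISDD against SDDIR, with an adjusted p of 0.0715 (1.06e-07 to 0.0715 across alternatives). Kcnh2 did not pass in RISDD against SDDIR when SDDIR A was left out, with an adjusted p of 0.0771 (6.12e-07 to 0.0771 across alternatives).

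Of the calcium- and sodium-activated genes 6 of 8 were kept. Kcnn4, the intermediate-conductance channel of lymphocytes, red cells and epithelia, had values of 29.3, 105 and 169 in NIL, 7.89, 31.9 and 20.3 in SDD, 99.9 and 197 in SDDIR and 528, 541 and 697 in RISDD. All RISDD libraries were above all others, while NIL spread over a wide range. Kcnn4 rose in SDDIR (2.94 ± 0.70, adjusted p = 0.0123) and RISDD (4.99 ± 0.63, adjusted p = 0.000108) against SDD and fell in SDD against NIL (-2.15 ± 0.63, adjusted p = 0.0392), where 1 SDD library was above NIL A. Kcnn3, a small-conductance channel that shapes the afterhyperpolarization of neurons, went down. It was at 40.7, 32.3 and 70.9 in NIL, 103, 56.1 and 81.1 in SDD, 10.2 and 17.8 in SDDIR and 7.42, 9.10 and 15.8 in RISDD, and fell in SDDIR (-2.44 ± 0.47, adjusted p = 0.00412) and RISDD (-2.80 ± 0.42, adjusted p = 0.000355) against SDD. The Kcnn4 call in SDD against NIL ended when NIL B, NIL C, SDD A, SDD C, SDDIR A, SDDIR B, RISDD A, RISDD B or RISDD C was left out, with adjusted p from 0.0549 to 0.141 (0.000723 to 0.156 across alternatives). Leaving out SDDIR B ended the Kcnn4 call in SDDIR against SDD, with an adjusted p of 0.125 (7.46e-05 to 0.125 across alternatives). Kcnn3 did not pass in SDDIR against SDD when SDDIR A was left out, with an adjusted p of 0.0535 (3.49e-05 to 0.0535 across alternatives).

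Inward rectifiers hold the membrane near the potassium equilibrium potential, and 7 of 13 were kept. Kcnj15 had values of 195, 215 and 117 in NIL, 72.2, 49.3 and 31.3 in SDD, 12.7 and 17.8 in SDDIR and 4.95, 3.03 and 0 in RISDD. The 4 groups did not overlap, with NIL highest and RISDD lowest. Kcnj15 fell in RISDD against SDD (-4.09 ± 0.61, adjusted p = 0.00036) and against SDDIR (-2.48 ± 0.69, adjusted p = 0.0482), and its difference between SDD and NIL did not pass (-1.80 ± 0.61, adjusted p = 0.0682). The Kcnj15 call in RISDD against SDDIR ended when NIL A, NIL B, SDD A, SDD B, SDD C, SDDIR A, SDDIR B, RISDD B or RISDD C was left out, with adjusted p from 0.0544 to 0.253 (0.00502 to 0.253 across alternatives). It also ended with either other pseudocount, with no filter, with a minimum value of 50, in limma without trend and robust moderation, and in edgeR.

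Two-pore channels carry background leak current, and 5 of the 8 kept rose and 1 fell in RISDD against SDD. Of all genes 20.0% rose and 22.6% fell in that comparison. The 5 include Kcnk9, which the filter kept through its RISDD libraries. Kcnk2 (TREK), opened by stretch, had values of 111, 128 and 142 in NIL, 121, 129.6 and 155 in SDD, 239 and 298 in SDDIR and 313, 373 and 473 in RISDD. Every library with HRAS was above every library without it, and it rose in SDDIR (0.98 ± 0.22, adjusted p = 0.00934) and RISDD (1.50 ± 0.20, adjusted p = 0.000154) against SDD. Kcnk3, an acid-sensitive TASK channel, was at 15.5, 51.3 and 50.5 in NIL, 11.3, 43.5 and 27.0 in SDD, 79.6 and 153 in SDDIR and 392, 404 and 465 in RISDD, and rose in SDDIR (2.17 ± 0.60, adjusted p = 0.0261) and RISDD (4.08 ± 0.54, adjusted p = 0.000156) against SDD. All RISDD libraries of Kcnk3 were above all SDDIR libraries, though the difference did not pass (1.92 ± 0.60, adjusted p = 0.075). Leaving out SDDIR B ended the Kcnk2 call in SDDIR against SDD, with an adjusted p of 0.103 (0.000428 to 0.103 across alternatives). Kcnk3 did not pass in SDDIR against SDD when SDD A, SDD C, SDDIR A or SDDIR B was left out, with adjusted p from 0.0571 to 0.215 (0.00127 to 0.215 across alternatives).

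Kcnk5, another TASK gene known from epithelia, was highest in SDDIR, at 39.1, 49.0 and 19.4 in NIL, 45.1, 38.7 and 33.8 in SDD, 161 and 187 in SDDIR and 96.5, 73.8 and 64.8 in RISDD. It rose in SDDIR (2.13 ± 0.37, adjusted p = 0.00251) and RISDD (0.97 ± 0.33, adjusted p = 0.0375) against SDD, and the difference between RISDD and SDDIR did not pass (-1.16 ± 0.37, adjusted p = 0.0806). Kcnk9, a neuronal TASK channel, had values of 0, 1.11 and 0 in NIL, 21.4, 4.83 and 9.83 in SDD, 1.69 and 8.30 in SDDIR and 45.8, 62.7 and 42.7 in RISDD. It rose in SDD against NIL (3.13 ± 0.65, adjusted p = 0.00985), with 1 against 40 reads, a ratio of 35.6 after scaling for depth (95% counting interval 6.03 to 1440). Its log2 difference was 2.17 ± 0.65 in RISDD against SDD and 3.34 ± 0.73 in RISDD against SDDIR. Outside RISDD only SDD A reached 10, so the filter kept Kcnk9 through its RISDD libraries. Both differences of RISDD are therefore a description, with no test. Kcnk1 was the one to fall. Its values were 65.1, 64.7 and 78.6 in NIL, 66.5, 63.8 and 54.1 in SDD, 48.3 and 58.1 in SDDIR and 21.0, 9.10 and 11.9 in RISDD, and it was lower in RISDD than in SDD (-2.13 ± 0.31, adjusted p = 0.000297) and SDDIR (-1.93 ± 0.35, adjusted p = 0.00778) with no overlap. The rise of Kcnk9 in SDD against NIL did not pass in a fit of only these 2 groups (adjusted p = 0.0632, and 0.00157 to 0.0632 across alternatives). The Kcnk5 call in RISDD against SDD ended when SDD A, SDD B, SDD C, SDDIR A, SDDIR B, RISDD A, RISDD B or RISDD C was left out, with adjusted p from 0.0548 to 0.134 (0.00251 to 0.134 across alternatives). Kcnk9 is still counted among the rises in RISDD. Its place in the count against SDD was lost without SDD B, SDD C, RISDD A or RISDD B. In the count against SDDIR it was lost without SDDIR A, RISDD A, RISDD B or RISDD C. The Kcnk1 call in RISDD against SDDIR ended when SDDIR A or SDDIR B was left out, with adjusted p from 0.06 to 0.0752 (1.01e-05 to 0.0752 across alternatives).

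Potassium channel auxiliary genes, 11 kept of 16, rose in 5 cases in SDD against NIL and fell in none, and in RISDD against SDD 5 rose and 6 fell. Of all genes 9.32% rose and 8.26% fell in the first comparison, and 20.0% rose and 22.6% fell in the second. Kcnip4 and Kcnmb2, kept by the filter through SDD alone, are counted among the rises in SDD and the falls in RISDD. Kcnab1, a cytoplasmic beta subunit that speeds the inactivation of Kv1 channels, had values of 767, 536 and 573 in NIL, 1606, 1284 and 1403 in SDD, 1318 and 1413 in SDDIR and 2269.5, 2298 and 2420.1 in RISDD. The 3 NIL libraries were lowest, SDD and SDDIR overlapped, and the 3 RISDD libraries were highest. Kcnab1 rose in SDD against NIL (1.20 ± 0.15, adjusted p = 0.000853), in RISDD against SDD (0.71 ± 0.15, adjusted p = 0.00308) and in RISDD against SDDIR (0.77 ± 0.17, adjusted p = 0.0177). Of its relatives, Kcnab2 was at 74.9 ± 6.94 in NIL and 111 ± 26.8 in SDD, against 71.0 ± 9.83 in SDDIR and 38.0 ± 14.8 in RISDD and fell in RISDD against SDD (-1.58 ± 0.31, adjusted p = 0.00212). Kcnab3 was at 17.5 ± 6.52 in NIL and 17.4 ± 3.04 in SDD, against 64.2 ± 0.246 in SDDIR and 48.9 ± 6.75 in RISDD and rose in SDDIR (1.84 ± 0.36, adjusted p = 0.0043) and RISDD (1.44 ± 0.32, adjusted p = 0.00415) against SDD. Leaving out SDDIR A, SDDIR B, RISDD A, RISDD B or RISDD C ended the Kcnab1 call in RISDD against SDDIR, with adjusted p from 0.0549 to 0.152 (7.46e-05 to 0.152 across alternatives).

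The Kcnip genes encode calcium-binding partners of Kv4 channels, and Kcnip1 and Kcnip3 went opposite ways. Kcnip1 had values of 124, 61.3 and 146 in NIL, 342, 237 and 267 in SDD, 321 and 386 in SDDIR and 58.1, 36.4 and 46.6 in RISDD. SDD and SDDIR overlapped above NIL, and all RISDD libraries were lowest. It rose in SDD against NIL (1.42 ± 0.32, adjusted p = 0.0138) and fell in RISDD against SDD (-2.57 ± 0.32, adjusted p = 1e-04) and SDDIR (-2.90 ± 0.36, adjusted p = 0.00125). Kcnip3, whose product is also known as the transcriptional repressor DREAM, was at 22.8, 18.9 and 46.6 in NIL, 19.2, 14.5 and 28.3 in SDD, 62.7 and 78.2 in SDDIR and 145, 142 and 145 in RISDD, and rose in SDDIR (1.76 ± 0.40, adjusted p = 0.00982) and RISDD (2.79 ± 0.36, adjusted p = 0.000126) against SDD. Kcnip1 did not pass in SDD against NIL when SDD A was left out, with an adjusted p of 0.0585 (0.000266 to 0.0727 across alternatives). For Kcnip3 in SDDIR against SDD the call rested on SDDIR B, with an adjusted p of 0.0901 (0.000341 to 0.0901 across alternatives) without it.

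Among subunits of the large-conductance calcium-activated channel, Kcnmb4, its neuronal beta subunit, had values of 186, 148 and 152 in NIL, 365, 276 and 213 in SDD, 40.6 and 53.4 in SDDIR and 30.9, 27.3 and 25.3 in RISDD. The SDD libraries were highest and the libraries with HRAS lowest, with no overlap between SDD and either neighbour. Kcnmb4 rose in SDD against NIL (0.78 ± 0.24, adjusted p = 0.048) and fell in SDDIR (-2.55 ± 0.27, adjusted p = 0.00013) and RISDD (-3.28 ± 0.24, adjusted p = 2.94e-06) against SDD. Kcnmb1, the smooth muscle beta subunit, was at 16.9 ± 6.09 in NIL and 16.6 ± 1.07 in SDD, against 94.9 ± 13.3 in SDDIR and 92.0 ± 17.0 in RISDD, and rose in SDDIR (2.44 ± 0.34, adjusted p = 0.00068) and RISDD (2.39 ± 0.30, adjusted p = 0.000121) against SDD. Kcne4, a partner of Kcnq1 and other Kv channels, was at 44.0, 23.4 and 32.0 in NIL, 42.9, 14.5 and 29.5 in SDD, 51.7 and 35.6 in SDDIR and 392, 254 and 376 in RISDD. Only the RISDD libraries of Kcne4 stood apart, with a rise against SDD (3.61 ± 0.40, adjusted p = 4.45e-05) and against SDDIR (2.93 ± 0.44, adjusted p = 0.00341). Leaving out NIL A, NIL B, SDD A, SDD B, SDDIR A, SDDIR B, RISDD A, RISDD B or RISDD C ended the Kcnmb4 call in SDD against NIL, with adjusted p from 0.0516 to 0.162 (0.00947 to 0.162 across alternatives).

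RISDD against SDDIR compares the order of HRAS and p53DD around the IRES, with the same proteins encoded in both. The 11 members higher in RISDD ranged from a log2 change of 0.77 (Kcnab1) to 3.34 (Kcnk9), and the 8 lower ones from -1.73 (Cacna1g) to -3.35 (Scn3a). Kcnj12, counted among the 11, was kept by the filter through RISDD alone, so its difference is a description, with no test. Kcne4 and Cacna1b among the higher genes and Kcnip1 and Cacng7 among the lower ones kept their call under every alternative. Both groups share the same SDD reference above, so the 2 contrasts against SDD are not independent of each other.

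**Figure D5:**
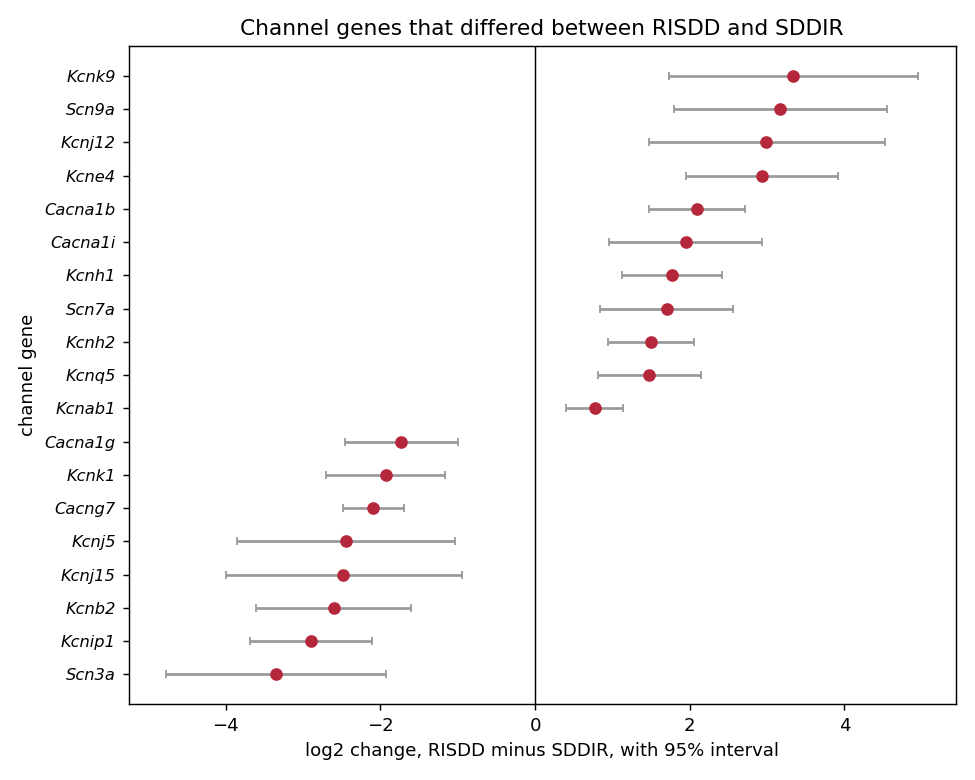
Log2 change (RISDD minus SDDIR) of channel genes among the 19 that passed between these groups, with 95% intervals as horizontal bars and a line at 0. Points to the right are higher in RISDD (n = 3) than in SDDIR (n = 2). The 2 outermost genes are Kcnk9 at 3.34 and Scn3a at -3.35. Kcnj12, which the filter kept through RISDD alone, is counted in the 19 as a description, with no test. Kcnk9 and Scn9a, kept by the filter through their RISDD libraries, are likewise a description.

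Of 32 members with means under 50 in every group 19 also changed in at least 1 comparison, where 51.2% of all genes did. That count includes the genes kept through 1 group alone that are named below. The genes named here were chosen after their values were seen. Kcnj12, an inward rectifier and the 1 gene kept through RISDD alone, was at 38.3, 36.4 and 34.0 in RISDD and at most 1.23 in SDD, with 110 against 3 reads, a ratio of 42.5 after scaling for depth (95% counting interval 14.2 to 209). The silent subunits Kcng4 and Kcns2 had 0 reads in RISDD, where they were at least 16.7-fold and 21.9-fold lower than in SDD by a floor of 3 reads over the group. Kcne5, a Kcne family subunit, fell to 1.24, 1.01 and 0.790 in RISDD from 77.8, 38.7 and 29.5 in SDD (-4.51 ± 0.45, adjusted p = 2.36e-05). Kcnip4 had values of 4.88, 4.46 and 3.88 in NIL, 51.9, 25.1 and 14.1 in SDD, 3.39 and 2.37 in SDDIR and 1.24, 3.03 and 0 in RISDD. Kcns2 and Kcnip4, with Kcnmb2, are the genes kept through SDD alone. The filter kept these 3 genes and Kcnj12 through the group where they were high, so their differences from it are a description, with no test.

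The threshold itself divided genes with similar values. Kcnip4, Kcnj12, Kcnmb2 and Kcns2 were among the members at 10 or more in exactly 3 libraries, while Kcna2, Kcng3, Kcnh3, Kcnh6, Kcnj3 and Kcnq3 reached it in 2 and were left out. Among channel genes typical of neurons, Kcna2 reached at most 22.3 in a library, Kcnc1 12.4, Kcnq3 17.8 and Kcnj6 11.3, and none of these 4 was kept. They encode an axonal Kv1 channel, a fast Kv3 channel, an M-current channel and a G-protein-gated rectifier. Kcnj16 and Kcnk15 had 0 reads in all 11 libraries.

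Levels of different genes were set side by side only per kilobase, using the longest reference transcript of each gene, which is a crude length. On that scale Cacna2d1 led the 82 members in SDD (487 per kilobase), Kcnab1 in SDDIR (312) and Kcnq1 in RISDD (665). Kcnq1 was also the second of SDDIR at 259. In NIL the auxiliary subunits Cacnb3 and Cacng7 were at 496 and 335 per kilobase, and in RISDD Kcnab1 and Kcnh2 came next after the pore subunit Kcnq1.

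Genes that place or modify these channels were followed in lists, and each list count stands beside the 17.6% of all genes that changed in SDD against NIL, 22.5% in SDDIR against SDD and 42.6% in RISDD against SDD. Of 17 tested partners of sodium channels and of the axon initial segment, 5 rose in SDD against NIL, 7 fell in SDDIR against SDD and 8 fell in RISDD against SDD (29.4%, 41.2% and 47.1%), and these comparisons held no call in the other direction. Their median log2 changes were 0.44, -0.83 and -0.35. Cntn2, an axonal adhesion molecule, had means of 13000.0 ± 3371 in NIL and 31350.0 ± 7572 in SDD, against 2151 ± 893 in SDDIR and 208 ± 124 in RISDD, and a log2 change of -7.37 in RISDD against SDD (adjusted p = 3.82e-07). Nfasc, which anchors channels at the initial segment, was at 412 ± 169 in NIL and 971 ± 479 in SDD, against 67.2 ± 0.473 in SDDIR and 42.8 ± 12.2 in RISDD (log2 change -4.40, adjusted p = 1.46e-05). Fgf12, an intracellular FGF that binds sodium channels, was at 78.5 ± 31.0 in NIL and 44.1 ± 18.8 in SDD, against 5.17 ± 2.28 in SDDIR and 3.04 ± 3.51 in RISDD (log2 change -3.74, adjusted p = 0.000556). Every alternative kept these 3 calls.

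Of 13 tested calcium channel partners, 2 rose and 1 fell in SDD against NIL, 3 rose and 1 fell in SDDIR against SDD, and 5 rose and 2 fell in RISDD against SDD (23.1%, 30.8% and 53.8%). These shares are near those of all genes. Gem, an RGK-type inhibitor of calcium channels, rose in SDD against NIL from 171 ± 25.1 to 769 ± 158 (log2 change 2.15, adjusted p = 0.000247). Stac, an adaptor of L-type channels, was at 119 ± 44.0 in NIL and 214 ± 91.8 in SDD, against 618 ± 93.8 in SDDIR and 506 ± 78.0 in RISDD and rose in RISDD against SDD (log2 change 1.30, adjusted p = 0.00797). Of 11 tested potassium channel partners, 2 rose and 1 fell in SDD against NIL, 4 fell in SDDIR against SDD, and 1 rose and 5 fell in RISDD against SDD (27.3%, 36.4% and 54.5%). Among them Abcc8, the sulfonylurea receptor that pairs with Kcnj11, was at 17.1 ± 17.6 in NIL and 90.7 ± 33.7 in SDD, against 75.9 ± 10.1 in SDDIR and 81.5 ± 10.9 in RISDD and rose in SDD against NIL (log2 change 2.81, adjusted p = 0.0138). That call ended without SDD A, with an adjusted p of 0.0601 (0.000281 to 0.0931 across alternatives). Dlg2, a scaffold that clusters Kv channels, was at 143 ± 75.8 in NIL and 216 ± 71.0 in SDD, against 105 ± 22.2 in SDDIR and 38.0 ± 1.33 in RISDD and fell in RISDD against SDD (log2 change -2.43, adjusted p = 0.000799). Of 9 tested genes of REST and its complex, which silence many neuronal genes, 1 rose and 1 fell in SDDIR against SDD, and 2 rose and 1 fell in RISDD against SDD. These are 22.2% and 33.3%, beside 22.5% and 42.6% of all genes. The 2 that rose in RISDD were the corepressor Rcor1 (log2 change 0.55, adjusted p = 0.00176) and Rest itself (log2 change 0.39, adjusted p = 0.0388). Rest was at 802 ± 47.0 in SDD and 1060 ± 144 in RISDD. The Rest call ended when SDD A, SDD B, SDD C, SDDIR A, SDDIR B, RISDD B or RISDD C was left out, with adjusted p from 0.0583 to 0.161 (0.00929 to 0.161 across alternatives).

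Marker lists of cell types moved with these groups, and each sum below is the range over the libraries of a group. Of all genes 9.32% rose and 8.26% fell in SDD against NIL, and 20.0% rose and 22.6% fell in RISDD against SDD. The 10 fibroblast markers summed to 764662 to 1124381 in NIL and 565711 to 700180 in SDD, against 164149 to 169321 in SDDIR and 88631 to 91381 in RISDD, and all 10 fell in RISDD against SDD. The 10 neuron markers summed to 2656 to 5468 in NIL and 7083 to 13627 in SDD, against 6549 to 6635 in SDDIR and 14174 to 15582 in RISDD. Of 9 tested, 5 rose in SDD against NIL, and in RISDD against SDD 4 rose (Nefl, Nefm, Snap25 and Stmn2) and 4 fell (Tubb3, Map2, Syt1 and Elavl3), with a median log2 change of -0.66. The neurofilament genes Nefl (mean 8956) and Nefm (3884) made up most of the RISDD sum. The 8 motor neuron markers summed to 2110 to 4090 in NIL and 4781 to 14392 in SDD, against 378 to 501 in SDDIR and 827 to 1015 in RISDD. Of 5 tested, Mnx1, Prph, Chodl and Isl2 rose in SDD against NIL. Each of these 4 calls ended when any of several libraries was left out, SDD A and SDD C among them, with adjusted p from 0.0533 to 0.142. In RISDD against SDD Mnx1, Prph, Chodl and Isl2 fell and Slc5a7 rose (adjusted p = 0.0122, and 0.0501 without SDD C). Chodl (mean 7671) made up most of the SDD sum and Slc5a7 (867) most of the RISDD sum, and Chat, the acetylcholine-synthesizing enzyme, was listed at 0 in all 11 libraries. Beside Kcnq1, Kcnk5 and Kcnn4, which epithelia carry, the 7 epithelial markers summed to 915 to 1014 in NIL and 64 to 72 in SDD, against 2431 to 3769 in SDDIR and 8718 to 12769 in RISDD. Of 6 tested, 4 fell in SDD against NIL and 6 rose in RISDD against SDD, and Cdh1 was at 0 in all SDD libraries and at 71.7, 314 and 198 in RISDD. Lymphocytes carry Kcna3 and Kcnn4, but none of the 8 leukocyte markers is particular to lymphocytes. These 8 markers summed to 1032 to 4636 in NIL and 289 to 672 in SDD, against 351 to 529 in SDDIR and 590 to 888 in RISDD. Of the 8, 1 rose and 2 fell in RISDD against SDD, and Cx3cr1 was at 0 in both SDDIR libraries. Beside Kcnmb1, the 8 smooth muscle markers summed to 10530 to 24066 in NIL and 4988 to 5779 in SDD, against 2018 to 2877 in SDDIR and 2347 to 2913 in RISDD, and of 6 tested 1 rose and 3 fell in RISDD against SDD. The 7 endothelial markers summed to 72 to 105 in NIL and 82 to 113 in SDD, against 172 to 178 in SDDIR and 530 to 630 in RISDD. The part of these cell types in the changes of channel genes was not tested.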

How the data were processed

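RNA of sorted cells was read after polyA selection with a directional kit, 1 library a sample. The deposited table holds signal values, gene counts that the authors divided by 1 constant per library, as the values show. The submitters' processing notes name Trim Galore 0.6.10, Salmon 1.10.3 and the build GRCm39. The tool that summed and scaled the reads is not given in those sources. Salmon shares reads of similar sequences among genes, which can blur paralogs.

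All values of each library were whole multiples of its smallest one (100% at a tolerance of 0.001), which gave reads. Of the 12 samples 11 libraries were used. The SDDIR_B column appears 2 times with identical values in 23077 rows, so 1 column was not used, and whether it is replicate B or C is unsettled. The third SDDIR sample was not analysed here.

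Genes that reached 10 in 3 or more libraries entered 1 limma fit (3.58.1, R 4.3.3) over the 4 groups on log2(value + 1), with trend and robust moderation and Benjamini-Hochberg adjustment. Alternatives were other pseudocounts, filters and scalings, a replicate block, fits of only 2 groups, each library left out, and edgeR 4.0.16 and DESeq2 1.42.0 on the recovered reads. The code was tested on simulated data.

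Named genes are channel genes that changed with a mean of at least 50 in a group, neuronal channel genes fixed by name, and up to 3 genes a list. Some genes that this rule names are not reported here, though counts include them. Members, lists, motifs and this rule were chosen with earlier results of these data known. Planned protein features were not used here. Counting intervals are exact binomial, at 95%, and cover counting error only.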

Additional observations from a re-analysis of the deposited data

How the results depend on the processing

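Of 135 calls of single channel genes, 75 held under every alternative that tested them, 58 were lost when some library was left out and 0 changed sign. Some calls were also lost under another pseudocount, filter, scaling or fit. The ranges of adjusted p across alternatives given above include those settings. A minimum value of 50 left fewer genes tested, and gave 10 members higher in SDD than NIL (18 before), 12 lower in SDDIR than SDD (24) and 18 lower in RISDD than SDD (30). With only the 2 groups compared in the fit, 4 members were higher and 4 lower in SDD than NIL (18 and 6 before), and 21 higher and 14 lower in RISDD than SDDIR. Over all genes that fit called 697 in SDD against NIL (2498 before), 5361 in SDDIR against SDD (3199) and 4923 in RISDD against SDDIR (1377). DESeq2 called 2258 genes in this last comparison. For these fits the cause was not tested.

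With 1 library left out, members higher in SDD than NIL ranged from 7 to 19, and all genes changed from 1231 to 4128. Members lower in SDDIR than SDD ranged from 10 to 30, and all genes from 1673 to 6337. In RISDD against SDDIR the members ranged from 2 to 18 higher and 2 to 14 lower, and all genes from 308 to 4182. Leaving out a library also removes degrees of freedom.

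Quantile scaling made 49% of the calls in SDDIR against SDD higher (1718 higher, 1790 lower), against 38.4% (1230 and 1969), while the members were 17 and 23. With a replicate block the members were 19 higher and 7 lower in SDD against NIL, 15 and 23 in SDDIR against SDD, 23 and 33 in RISDD against SDD and 14 and 7 in RISDD against SDDIR. The letters were not taken to pair the samples, since the deviations of 6 of 15 same-letter pairs, each pair of letter C among them, correlated at 0 to 0.079 and only 9 over 0.1, though the same letter correlated best in 29 of 30 combinations, a hint from the data and not the design. Members near a value of 10 rest on few reads, and their changes are the least precise.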

Other observations

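Other cation channels and the ion pumps gave further values. Of 19 tested genes of other cation channels and leak, 2 rose and 3 fell in SDD against NIL, 1 rose and 4 fell in SDDIR against SDD, 3 rose and 8 fell in RISDD against SDD, and 3 fell in RISDD against SDDIR (26.3%, 26.3%, 57.9% and 15.8%, where 17.6%, 22.5%, 42.6% and 9.69% of all genes changed). Hcn4, the pacemaker channel of the heart, was at 44.6 ± 16.8 in NIL and 122 ± 65.8 in SDD, against 6.52 ± 0.838 in SDDIR and 4.05 ± 3.53 in RISDD, and fell in RISDD against SDD (log2 change -4.70, adjusted p = 6.17e-05). Trpc6, a receptor-activated cation channel, was at 2.13 ± 1.88 in SDD and 58.4 ± 17.4 in RISDD, and rose between them (log2 change 4.35, adjusted p = 0.000412).

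Of 16 tested pump and calcium clearance genes, 2 rose and 2 fell in SDD against NIL, 2 rose and 2 fell in SDDIR against SDD, 6 rose and 3 fell in RISDD against SDD, and 2 rose in RISDD against SDDIR (25%, 25%, 56.2% and 12.5%). Atp1b2, a beta subunit of the sodium pump, was at 25.4 ± 7.20 in NIL and 137 ± 46.7 in SDD, against 19.5 ± 5.99 in SDDIR and 6.53 ± 3.05 in RISDD. SDD was highest and RISDD lowest, with no overlap between these groups. Atp1b2 rose in SDD against NIL (log2 change 2.36, adjusted p = 0.00565) and fell in SDDIR (log2 change -2.73, adjusted p = 0.00271) and RISDD (log2 change -4.24, adjusted p = 2.65e-05) against SDD. Fxyd5, a regulator of the pump known from epithelia, was at 299 ± 149.5 in NIL and 77.3 ± 37.0 in SDD, against 275 ± 51.6 in SDDIR and 962 ± 87.5 in RISDD, and rose in RISDD against SDD (log2 change 3.71, adjusted p = 2.22e-05). Slc8a1, a sodium-calcium exchanger, was at 1523 ± 487 in NIL and 1614 ± 223 in SDD, against 2406 ± 438 in SDDIR and 3445 ± 156 in RISDD, and rose in RISDD against SDD (adjusted p = 0.0026). The 8 Schwann cell and neural crest markers summed to 347 to 488 in NIL and 92 to 161 in SDD, against 157 to 222 in SDDIR and 300 to 358 in RISDD, and the 7 skeletal muscle markers found in the table to 16 to 19 in NIL and 6 to 27 in SDD, against 8 to 12 in SDDIR and 27 to 42 in RISDD.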
